A study of Homo sapiens with 6 samples.

Results

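The pentose phosphate pathway runs alongside glycolysis in the cytosol. Its oxidative arm takes glucose phosphate through a lactone and phosphogluconate to ribulose phosphate and reduces NADP to NADPH, and its non-oxidative arm exchanges sugar phosphates with glycolysis in either direction. Ribose phosphate from either arm is activated to phosphoribosyl pyrophosphate (PRPP), from which purine, pyrimidine and pyridine nucleotides are built. In tumor cells, the pathway is known as a source of NADPH for lipid synthesis and redox defence and of ribose for nucleotides.

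The genes described are 9 of the 30327 in the count table, namely H6PD, PGLS, PGD, RPIA, RPE, TKT, TALDO1, PRPS1 and PRPS2. They were chosen by symbol from the fall of one of them, TALDO1, in cells given an siRNA against GRB2. The lower level of TALDO1 is therefore a description here and carries no test, whereas the other 8 were tested in the same comparison. The question was whether these 8 enzymes moved with TALDO1. All 9 had enough reads to be tested among 15801 genes.

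SK-BR-3 is an established breast cancer cell line that overexpresses HER2, and GRB2 is an adaptor protein that links receptors of that family to RAS signalling. Messenger RNA captured on beads was sequenced in 3 si_NC libraries, whose cells received an siRNA without a target, and 3 si_GRB2 libraries, whose cells received an siRNA that targets GRB2. Both groups were transfected, and no other allele or agent is given. The descriptions of the treated libraries name si_GRB2, while their titles and genotype name GRB2 overexpression. GRB2 fell from 126 ± 2.89 to 28.5 ± 0.957 TMM-normalized CPM (library-scaled read counts; SD, n = 3 each), a log2 fold change of −2.15 (standard error 0.04), the direction that the descriptions name. The labels name neither the siRNA of each library nor whether replicates were separate cultures, so p-values measure only the spread between these libraries. The study lists a single siRNA sequence against GRB2. Effects of that sequence beyond GRB2 thus cannot be told apart from those of the loss of GRB2.

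The reads assigned to genes ranged from 24810378 to 28532480 per library. Mitochondrial genes took 8.66% to 9.02% of them in si_NC and 7.59% to 7.80% in si_GRB2. Of 8 markers chosen for the line, ERBB2, GRB7, STARD3, KRT8, KRT18, KRT19 and EPCAM had at least 43.8 FPKM (fragments scaled to gene length and library size) in every library, whereas CDH1 had at most 0.01 FPKM. The 8 summed to 3282 to 3643 FPKM in si_NC and 2822 to 2942 FPKM in si_GRB2, although ERBB2 itself had 263 to 286 FPKM in si_NC and 323 to 347 FPKM in si_GRB2. ESR1 and PGR, which the line is known to lack, had at most 0.09 FPKM. The stromal markers with FPKM (COL1A1, COL1A2 and PDGFRB) summed to 0.38 to 0.50 in si_NC and 0.41 to 0.49 in si_GRB2, and the blood markers with FPKM (CD3E and CD68) to 0.43 to 0.59 and 0.33 to 0.42. The endothelial markers CDH5 and VWF summed to 3.61 to 4.16 FPKM in si_NC and 2.33 to 2.92 FPKM in si_GRB2, nearly all of it from CDH5, while DCN, PECAM1 and PTPRC had at most 2 reads in any library and HBB is not listed. The part of these differences in the results was not tested.

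Shown first are the promoters of TALDO1, the gene behind the choice, of its partner enzyme TKT, which was called lower, and of RPIA, the 1 member called higher. Each is from RefSeq on GRCh38.p14, 5′ to 3′ on the gene's strand, and ends at the base before the gene's first annotated base in GENCODE. Capitals mark GC boxes (GGGCGG) and CCAAT boxes (CCAAT), searched on both strands.
TALDO1 (chr11:747214-747414, plus strand): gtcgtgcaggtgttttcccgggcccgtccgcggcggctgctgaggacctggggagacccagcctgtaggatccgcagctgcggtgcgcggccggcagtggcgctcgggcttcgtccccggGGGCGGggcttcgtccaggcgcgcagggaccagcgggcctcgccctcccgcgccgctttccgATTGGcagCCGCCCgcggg
TKT (chr3:53256053-53256272, minus strand): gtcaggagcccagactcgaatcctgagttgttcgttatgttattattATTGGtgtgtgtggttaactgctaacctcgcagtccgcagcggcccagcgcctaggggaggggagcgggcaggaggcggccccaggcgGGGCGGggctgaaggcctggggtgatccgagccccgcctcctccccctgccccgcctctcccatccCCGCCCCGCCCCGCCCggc
RPIA (chr2:88691423-88691672, plus strand): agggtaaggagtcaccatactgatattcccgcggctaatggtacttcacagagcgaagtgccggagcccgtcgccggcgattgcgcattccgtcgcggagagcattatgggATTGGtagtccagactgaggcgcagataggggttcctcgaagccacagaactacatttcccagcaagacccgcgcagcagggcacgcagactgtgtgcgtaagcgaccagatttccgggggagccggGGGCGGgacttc

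These stretches hold 2 GC boxes and 1 CCAAT box for TALDO1, 4 and 1 for TKT and 1 and 1 for RPIA, so that both boxes precede each of them. A match describes the letters and is neither a site nor a cause. All 9 members had a RefSeq promoter, taken as 250 bases before to 50 bases after the start. A GC box was found in 8 of the 9, all but H6PD, against 45.0% of 35116 promoters, and a CCAAT box in 6, against 34.6%. These 35116 promoters were not limited to the tested genes or matched for GC content. A share above theirs is therefore not by itself a trait of the members. The core of the antioxidant response element (TGACNNNGC, both strands) was found in the promoters of PGD and RPE, against 13.3% of all promoters. None of the 9 held an E-box (CACGTG) or TATAAA, found in 7.26% and 11.5% of all promoters, which says only that these letters are not in this window. The GC content was 75.0% for TALDO1, the highest of the 9, and 47.3% for H6PD, the lowest, with a median of 58.7% over all promoters.

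Per length, the 9 enzymes spanned a wide range of levels. Their order on this scale depends on the length taken for each gene. In si_NC, the order of mean FPKM was TALDO1 (92.8 ± 5.06), TKT (75.1 ± 4.39), PGD (51.9 ± 2.23), PRPS1 (16.8 ± 0.586), RPE (12.8 ± 0.257), RPIA (11.7 ± 0.331), PGLS (10.5 ± 0.332), H6PD (1.35 ± 0.02) and PRPS2 (0.413 ± 0.144; SD, n = 3 each). No neighbours in that order overlapped between libraries. In si_GRB2, TKT came first at 72.3 ± 1.30 FPKM and TALDO1 second at 56.1 ± 2.26 FPKM (SD, n = 3). RPIA (14.2 ± 1.16 FPKM) and RPE (13.6 ± 0.272 FPKM) had also changed places in the order of means, but their libraries overlapped in si_GRB2.

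**Figure D1:**
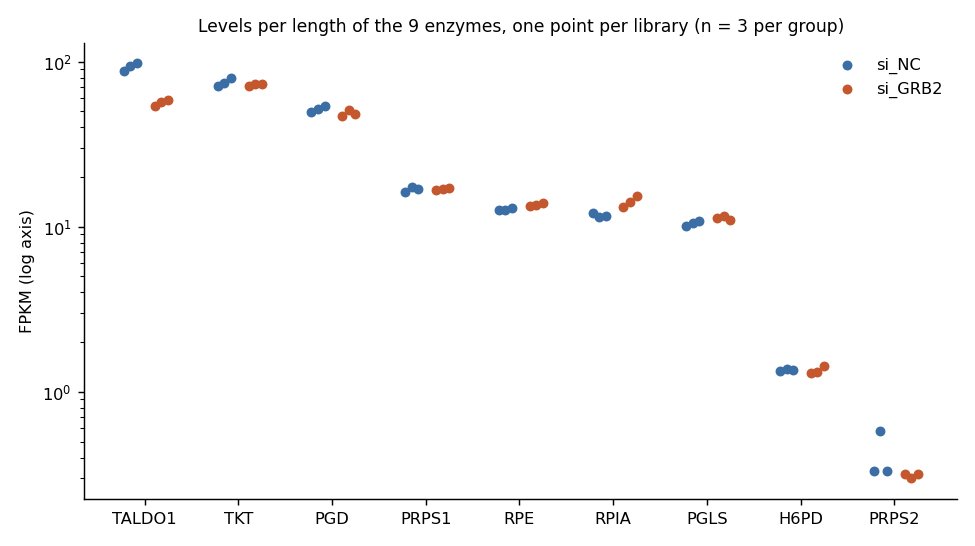
FPKM of the 9 enzymes on a log axis, ordered by their mean in si_NC, with 1 point for each of the 3 si_NC (blue) and 3 si_GRB2 (orange) libraries. TALDO1 lies above TKT in si_NC and below it in si_GRB2, while PRPS2 is the lowest throughout.

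Transaldolase (TALDO1, ENSG00000177156.11) moves a dihydroxyacetone unit from sedoheptulose phosphate to glyceraldehyde phosphate in the non-oxidative arm. The gene lies on the plus strand of chromosome 11 of GRCh38 from 747415 to 765012. In si_NC it was measured at 326, 342 and 339 CPM and in si_GRB2 at 195, 194 and 202 CPM, from 42719 reads in all. Every si_GRB2 library was thus below every si_NC library, as was so for 21.2% of all tested genes. The log2 fold change was −0.77, a change of −41.3%. By the size of its log2 fold change, TALDO1 ranked 382 among the 15801 tested genes. In bulk RNA, fewer cells that hold a transcript and less of it per cell cannot be told apart. TALDO1 made up 33.9% ± 0.413 of the summed FPKM of the 9 enzymes in si_NC and 23.9% ± 0.397 in si_GRB2 (SD, n = 3 each). The size of this share depends on the gene lengths used. In mean CPM, TALDO1 had 336 in si_NC and 197 in si_GRB2, beside 1310 and 1239 for the other 8 summed.

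In the comparison of si_GRB2 with si_NC, 3 of the other 8 enzymes passed the test, which is an adjusted p under 0.05 from edgeR's quasi-likelihood test over all tested genes. PGD and TKT were lower and RPIA was higher, while H6PD, PGLS, RPE, PRPS1 and PRPS2 did not pass. By the same test, 30.6% of all tested genes were called, 15.2% higher and 15.5% lower, so that 3 of 8 (37.5%) lies near the background. The CPM of 3 of the 8 did not overlap between the groups, as was so for 42.3% of all tested genes, 21.1% higher and 21.2% lower. The same shares stand behind each separation in CPM named below. For FPKM, the share of all genes without overlap was not counted. Limma on log2(FPKM + 1) called 1 of the 8, RPIA, and 2633 of all 15800 genes in that fit, so calls were fewer over all genes too. Over all genes it moved the share of calls that were higher from 49.5% to 61.7% and the median log2 fold change from 0.0019 to 0.0237. Small differences in FPKM named below are to be read beside that shift. None of the 8 passed the limits of the study, applied here to the adjusted p (more than 1.5-fold in either direction and under 0.01), which 2.52% of all tested genes did, 0.829% higher and 1.69% lower. Of the 3 that were called, the largest log2 fold change was 0.23, against a limit of 0.58. Over all 8, the median log2 fold change was −0.04 and the median absolute log2 fold change 0.08, against 0.0019 and 0.14 over all tested genes. For 7 of the 8, the whole 95% interval of the log2 fold change lay inside the fold limit. The exception was PRPS2, whose interval is wide.

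**Figure D2:**
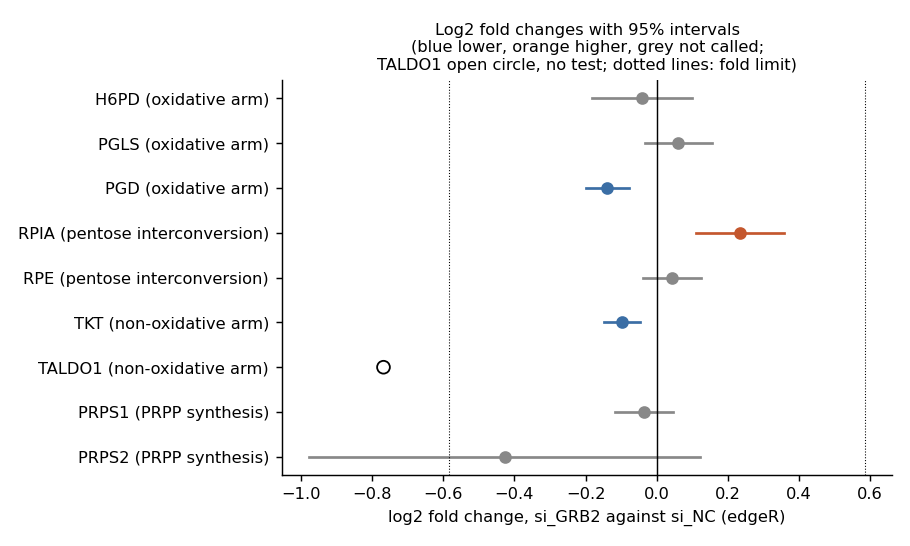
Log2 fold change (si_GRB2 against si_NC) of the 9 enzymes by role, with 95% intervals from edgeR for the 8 tested ones, blue for lower, orange for higher and grey for not called. The open circle is TALDO1 at −0.77, the dotted lines are the limit of a 1.5-fold change, and only the interval of PRPS2 reaches the limit.

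Of the oxidative arm, 1 enzyme was lower and the other two did not pass the test. Phosphogluconate dehydrogenase (PGD, ENSG00000142657.21, chromosome 1 from 10398592 to 10420511, plus strand) makes NADPH while turning phosphogluconate into ribulose phosphate. PGD had 213, 217 and 216 CPM in si_NC and 194, 199.6 and 193 CPM in si_GRB2. All si_GRB2 libraries were below all si_NC libraries, as was so for 21.2% of all tested genes. The log2 fold change was −0.14 (standard error 0.03, edgeR quasi-likelihood adjusted p = 0.00122), so that it fell by 9.15% with a 95% interval from −12.8% to −5.33%. In FPKM, which were 49.7, 51.7 and 54.2 in si_NC and 46.8, 50.7 and 48.3 in si_GRB2, the groups overlapped. Limma on log2(FPKM + 1) gave −0.09 with an adjusted p of 0.205, so the call for PGD rests on the counts.

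Phosphogluconolactonase (PGLS, ENSG00000130313.7, chromosome 19 from 17511636 to 17521288, plus strand) opens the lactone ahead of PGD. It had 36.9, 37.6 and 36.7 CPM in si_NC and 40.1, 38.7 and 37.1 CPM in si_GRB2. The groups overlapped in CPM but not in FPKM, where PGLS had 10.1, 10.5 and 10.8 in si_NC and 11.3, 11.5 and 10.9 in si_GRB2. How many of all genes were apart in FPKM was not counted. The log2 fold change was 0.06 (95% interval −0.03 to 0.15, edgeR quasi-likelihood adjusted p = 0.349). Hexose phosphate dehydrogenase (H6PD, ENSG00000049239.13, chromosome 1 from 9234774 to 9271337, plus strand) carries out the first steps of the arm inside the endoplasmic reticulum. It had 1.33, 1.37 and 1.35 FPKM in si_NC and 1.30, 1.32 and 1.43 FPKM in si_GRB2, from 2458 reads in all. Its groups overlapped too, also in CPM, with a log2 fold change of −0.04 (95% interval −0.18 to 0.10, edgeR quasi-likelihood adjusted p = 0.696).

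Of the enzymes that interconvert the pentose phosphates, RPIA was higher and RPE did not pass the test. Ribose phosphate isomerase (RPIA, ENSG00000153574.9, chromosome 2 from 88691673 to 88750929, plus strand) turns ribulose phosphate into ribose phosphate. RPIA had 28.1, 26.1 and 25.1 CPM in si_NC and 29.7, 30.0 and 33.5 CPM in si_GRB2. Every si_GRB2 library was above every si_NC library, as was so for 21.1% of all tested genes. The log2 fold change was 0.23 (standard error 0.06, edgeR quasi-likelihood adjusted p = 0.00563), a rise of 17.7% with a 95% interval from 7.99% to 28.2%. In FPKM the groups were also apart, at 12.1, 11.4 and 11.6 against 13.2, 14.0 and 15.4, and limma on log2(FPKM + 1) gave 0.26 with an adjusted p of 0.0210.

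Ribulose phosphate epimerase (RPE, ENSG00000197713.15, chromosome 2 from 210002565 to 210022260, plus strand) turns the same ribulose phosphate into xylulose phosphate, the substrate of transketolase. RPE had 56.8, 56.3 and 55.0 CPM in si_NC and 58.5, 56.4 and 58.4 CPM in si_GRB2. The groups overlapped in CPM, and the log2 fold change was 0.04 (95% interval −0.04 to 0.12, edgeR quasi-likelihood adjusted p = 0.450). In FPKM they did not overlap, with 12.6, 12.7 and 13.1 in si_NC and 13.3, 13.5 and 13.9 in si_GRB2, but limma on log2(FPKM + 1) did not call the difference (adjusted p = 0.199). On the opposite strand, KANSL1L overlaps RPE with reads equal to 4.85% of those of RPE, and the strand setting of the count is not given in the sources used here. The transcripts of RPE shared 17.97% of their 31-base words with RPEL1, an intronless copy that is not listed in the count table.

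Transketolase (TKT, ENSG00000163931.16, chromosome 3 from 53224712 to 53256052, minus strand) moves ketol units between sugar phosphates and works on either side of transaldolase. It had the most reads of the 9, 137104 in all. TKT had 871, 882 and 909 CPM in si_NC and 839, 821 and 831 CPM in si_GRB2. All si_GRB2 libraries were below all si_NC libraries, as was so for 21.2% of all tested genes. The log2 fold change was −0.10 (standard error 0.02, edgeR quasi-likelihood adjusted p = 0.00527), so that TKT fell by 6.46% with a 95% interval from −9.67% to −3.14%. In FPKM, TKT overlapped between groups, with 71.4, 73.8 and 79.95 in si_NC and 70.8, 73.1 and 73.1 in si_GRB2, and limma on log2(FPKM + 1) gave −0.05 with an adjusted p of 0.499. The ratio of TALDO1 to TKT in FPKM was 1.22, 1.27 and 1.22 in si_NC and 0.758, 0.774 and 0.796 in si_GRB2. In FPKM, TALDO1 was therefore above TKT in each si_NC library and below it in each si_GRB2 library. Which of the pair is higher depends on the gene lengths used. The annotated exons of TKT cover 9502 bases, from 13 transcripts of which 3 are coding, and those of TALDO1 cover 2907 bases. In CPM, TKT was the higher in both groups, at 888 against 336 in si_NC and 830 against 197 in si_GRB2.

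**Figure D3:**
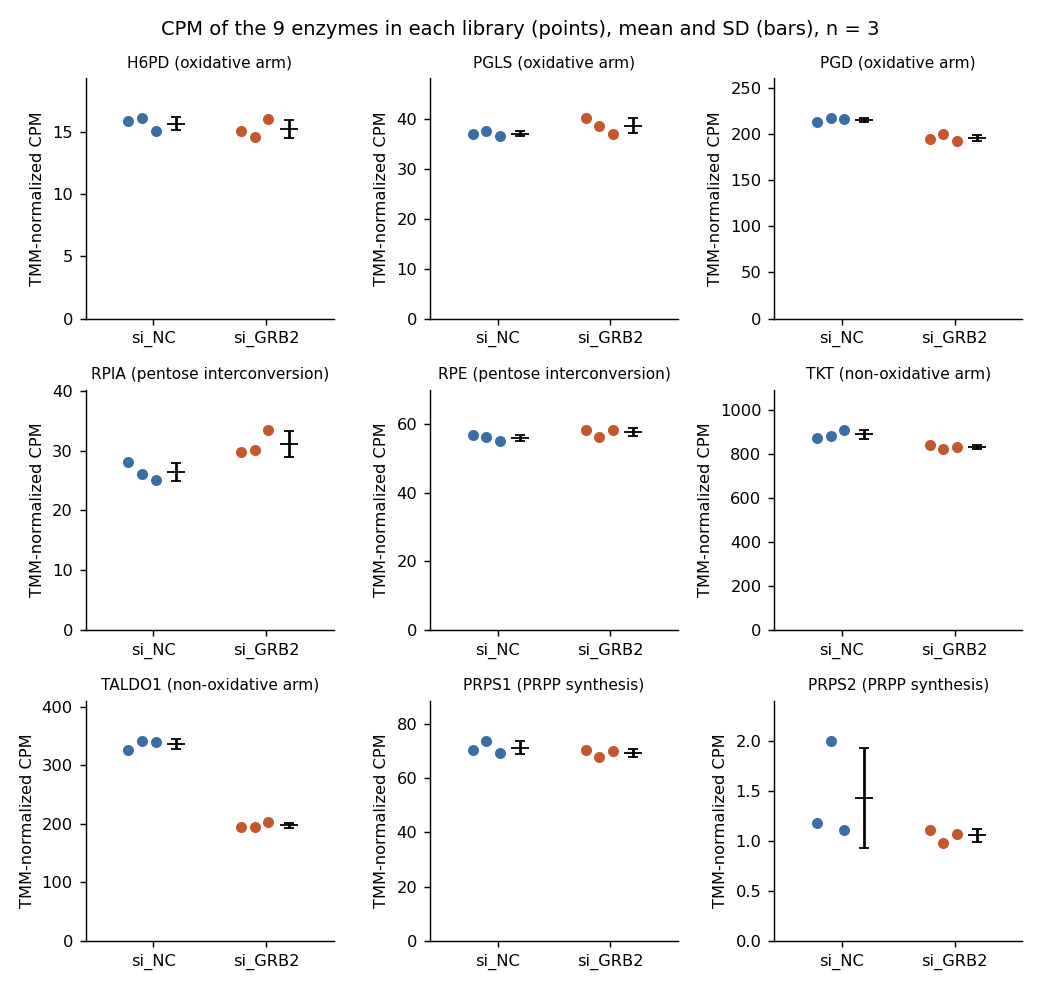
TMM-normalized CPM of each of the 9 enzymes by library, on axes from 0, with si_NC in blue and si_GRB2 in orange and black bars for mean and SD (n = 3). TALDO1 shows the wide gap between groups, PGD, TKT and RPIA narrow gaps without overlap, and the other 5 overlap.

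The enzymes that make PRPP from ribose phosphate and ATP did not pass the test. PRPS1 (ENSG00000147224.13, X chromosome from 107628428 to 107651993, plus strand) had 70.3, 73.7 and 69.1 CPM in si_NC and 70.5, 67.6 and 69.8 CPM in si_GRB2. The groups overlapped, with a log2 fold change of −0.04 (95% interval −0.12 to 0.05, edgeR quasi-likelihood adjusted p = 0.544). PRPS2 (ENSG00000101911.13, X chromosome from 12791355 to 12824222, plus strand), its close relative, had only 197 reads in all. PRPS2 was counted with 33, 51 and 31 reads in si_NC and 28, 27 and 27 reads in si_GRB2, and the 51 reads of si_NC replicate 2 stand apart. Its log2 fold change of −0.43 had a 95% interval from −0.98 to 0.12 (edgeR quasi-likelihood adjusted p = 0.245). Without si_NC replicate 2 it was −0.12, so a change of the size seen in TALDO1 was neither shown nor bounded at this depth. In FPKM its groups did not overlap, with 0.33, 0.58 and 0.33 in si_NC and 0.32, 0.30 and 0.32 in si_GRB2.

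Summed over the 8 enzymes other than TALDO1, FPKM came to 174, 179 and 188 in si_NC and 174, 181 and 181 in si_GRB2. On that scale, the groups overlapped. In CPM the same sum was 1293, 1311 and 1327 in si_NC and 1248, 1229 and 1239 in si_GRB2, without overlap, and TKT makes up most of it.

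Of 15 other genes of sugar phosphate and PRPP metabolism, 11 were tested and 4 were called, all lower (36.4% of the tested genes, median log2 fold change −0.09). This lies near the 30.6% called among all genes, of which 15.5% were lower. For the lists that follow, the background is the same, with 15.2% higher, and in limma on log2(FPKM + 1) it is 2633 of 15800 genes. It was not matched for reads per gene, on which precision depends, so a share above it is not by itself a trait of a list. SHPK, which makes sedoheptulose phosphate, the donor substrate of transaldolase, had 14.3, 14.0 and 14.5 CPM in si_NC and 10.6, 9.54 and 9.88 CPM in si_GRB2. The groups were apart, with a log2 fold change of −0.52 (edgeR quasi-likelihood adjusted p = 6.06e-05). GLYCTK, a glycerate kinase, had a log2 fold change of −0.54 (edgeR quasi-likelihood adjusted p = 0.0329) from about 4.07 CPM in si_NC, and without si_GRB2 replicate 1, si_GRB2 replicate 3, si_NC replicate 2 or si_NC replicate 3 it was not called. TIGAR, a phosphatase that directs glucose toward the pathway, and PGM1 were the other two, with log2 fold changes of −0.43 and −0.20. PRPSAP1 and PRPSAP2, which bind the PRPP synthetases, both had −0.04 and were not called. Without si_GRB2 replicate 1, 2 of the 11 were called, and limma on log2(FPKM + 1) also called 2.

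Of 18 glycolytic genes that share intermediates with the pathway, 15 were tested and 4 were called, 2 higher and 2 lower (26.7% against 30.6% of all genes, median log2 fold change 0.01). The liver-type phosphofructokinase PFKL rose from 125 ± 6.05 to 146 ± 7.54 CPM (SD, n = 3 each), a log2 fold change of 0.23 (edgeR quasi-likelihood adjusted p = 0.000573), and the muscle-type PFKM fell from 103 ± 1.24 to 90.7 ± 1.25 CPM (SD, n = 3 each), a log2 fold change of −0.18 (edgeR quasi-likelihood adjusted p = 0.000593). PFKFB3, which makes an activator of phosphofructokinase, had 0.21 and GAPDH −0.11. The genes at the branch point, HK1, HK2 and GPI, had log2 fold changes from 0.01 to 0.02 and were not called. With FPKM, limma called 1 of the 15, PFKL, and PFKFB3 was not called without si_NC replicate 2.

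Other enzymes that supply NADPH or its one-carbon route were called in 8 of 14 tested cases (57.1% against 30.6% of all genes), 6 lower and 2 higher, with a median log2 fold change of −0.06. ME1, the cytosolic malic enzyme, had 61.0, 60.4 and 59.9 CPM in si_NC and 82.5, 84.5 and 93.4 CPM in si_GRB2. The groups were far apart, with a log2 fold change of 0.52 (edgeR quasi-likelihood adjusted p = 2.49e-07). IDH1, the cytosolic isocitrate dehydrogenase, also rose, with 0.21 (edgeR quasi-likelihood adjusted p = 0.000707). The 6 that were lower were ALDH1L2 (−0.31), MTHFD1L (−0.25), SHMT2 (−0.22), SHMT1 (−0.22), MTHFD1 (−0.18) and MTHFD2 (−0.12), while their relatives ALDH1L1 (0.07) and MTHFD2L (0.01) were not called. With FPKM, limma called 3 of the 14, ME1 and IDH1 higher and 1 lower, and ALDH1L2 was not called by DESeq2 or without si_GRB2 replicate 1 or si_NC replicate 3.

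Of 21 tested redox enzymes that use NADPH or are served by it, 11 were called (52.4% against 30.6% of all genes), 7 lower and 4 higher. Their median log2 fold change was −0.04, against 0.0019 over all genes. In limma on log2(FPKM + 1) it was 0.0011, against 0.0237 over all genes. GPX2, a glutathione peroxidase, had 9.31, 10.6 and 9.98 CPM in si_NC and 6.83, 6.01 and 6.48 CPM in si_GRB2. It was past the study's limits, with a log2 fold change of −0.63 (edgeR quasi-likelihood adjusted p = 0.000111). GLRX, a glutaredoxin, had −0.48, while PRDX4, the peroxiredoxin of the endoplasmic reticulum, had 0.43 (edgeR quasi-likelihood adjusted p = 4.7e-08) and SRXN1, which repairs peroxiredoxins, had 0.23. With FPKM, limma called 6 of the 21, 4 lower and 2 higher.

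Of 27 nucleotide synthesis enzymes that use PRPP or act downstream of it, all were tested and 15 were called (55.6% against 30.6% of all genes), 12 lower and 3 higher, against 15.5% and 15.2% of all genes, with a median log2 fold change of −0.10. RRM2, the regulated subunit of ribonucleotide reductase, had 398, 403 and 399 CPM in si_NC and 312, 323 and 332 CPM in si_GRB2. All si_GRB2 libraries were lower, with a log2 fold change of −0.31 (edgeR quasi-likelihood adjusted p = 3.39e-07). PFAS, of the purine route, had −0.36, and CAD and DHODH, of the pyrimidine route, had −0.28 and −0.30. UPRT (0.54), ADSS1 (0.65) and ADSL (0.20) were the 3 that were higher, while PPAT, which commits PRPP to purines, had −0.10 and was not called. With FPKM, limma called 7 of the 27, 4 lower and 3 higher. There PFAS was not called (adjusted p = 0.0605, limma), and ADSS1, which had only 1.67 CPM in si_NC, was called with a log2 fold change of 0.16 on the log2(FPKM + 1) scale.

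Some pathway enzymes are known targets of NFE2L2, the transcription factor held by KEAP1, so a list of 24 other targets was read beside them. Of 22 tested, 12 were called (54.5% against 30.6% of all genes), 7 lower and 5 higher, with a median log2 fold change of −0.02. CBR3, a carbonyl reductase, fell from 24.5 ± 1.41 to 12.5 ± 0.585 CPM (SD, n = 3 each), a log2 fold change of −0.97 (edgeR quasi-likelihood adjusted p = 1.38e-08). AKR1B10, an aldo-keto reductase, fell from 2.54 ± 0.142 to 1.22 ± 0.252 CPM (SD, n = 3 each), a log2 fold change of −1.05 (edgeR quasi-likelihood adjusted p = 0.000641). In contrast, ME1 and SRXN1, which stand on this list too, were higher, and NQO1 (−0.12) and GCLM (0.17) were called in opposite directions, while SLC7A11 (0.22) was not called. The list shares TXN, TXNRD1, PRDX1, GSR, GCLC, GCLM and SRXN1 with the redox enzymes. With FPKM, limma called 6 of the 22, 3 in each direction, and the median became 0.0011, against 0.0237 over all genes in that fit.

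**Figure D4:**
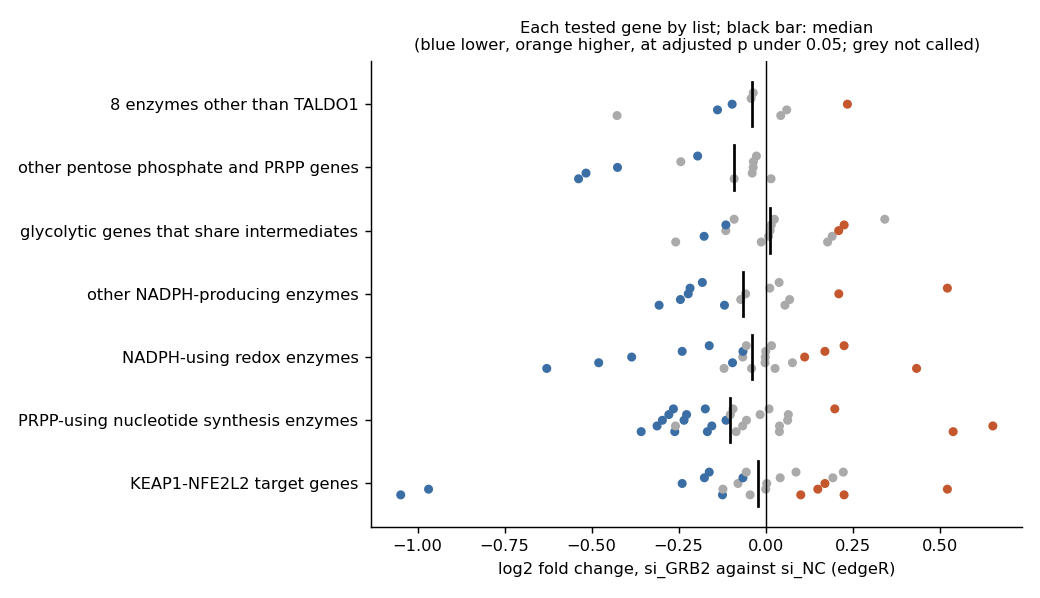
Log2 fold changes (si_GRB2 against si_NC) of every tested gene in the 8 enzymes other than TALDO1 and in the 6 lists, blue for called lower, orange for called higher, grey for not called, with a black bar at each median. All medians lie between −0.10 and 0.01, and CBR3 and AKR1B10 stand at the far left.

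Over 15 alternative settings, the log2 fold change of TALDO1 ran from −0.80 to −0.71, that of RPIA from 0.18 to 0.28, that of PGD from −0.15 to −0.09 and that of TKT from −0.12 to −0.05. That of PRPS2, the gene with the fewest reads, ran from −0.59 to −0.10 over 14 settings.

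**Figure D5:**
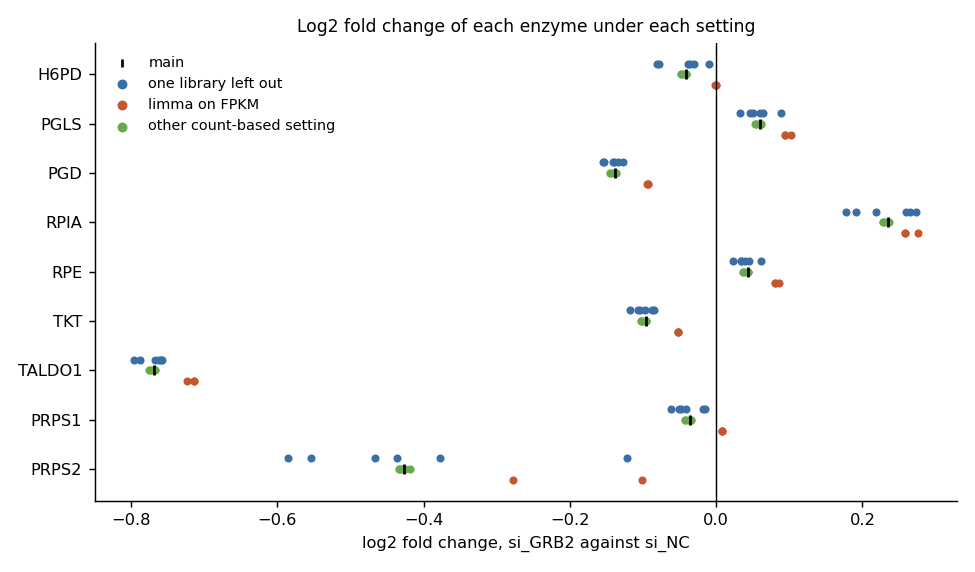
Log2 fold change (si_GRB2 against si_NC) of each enzyme under each setting, with a black tick for the reported value, blue for fits without 1 library, orange for limma on FPKM and green for other fits to the counts. TALDO1 stays between −0.80 and −0.71 and PRPS2 is spread from −0.59 to −0.10.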

How the data were processed

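Messenger RNA of 6 SK-BR-3 libraries, 3 si_NC and 3 si_GRB2, was grouped by the descriptions of the samples. The authors trimmed reads with FASTX-Toolkit, used HISAT2 for alignment to GRCh38, and counted reads that mapped to 1 place. For 30327 genes, the authors deposited the count of reads, without normalization, and for 29912 genes, the authors deposited FPKM. The counting tool, its strand setting, the annotation release and the total behind FPKM are not given in the sources used here.

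After filterByExpr, which kept 15801 genes, and TMM scaling, glmQLFit and glmQLFTest of edgeR 4.0.16 (R 4.3.3) compared si_GRB2 with si_NC without covariates, with Benjamini-Hochberg adjustment over all genes kept. Standard errors are the log2 fold change divided by the square root of F. Precision follows the reads per gene, 197 to 137104 for the members. Alternatives were DESeq2 1.42.0, its size factors, upper-quartile factors, other filters, limma 3.58.1 on log2(FPKM + 1) or log2(FPKM + 0.1), a replicate block and each library left out. Gene positions came from GENCODE 44, which has the build of the files, and promoters from RefSeq (GRCh38.p14). The TKT identifier differed from that annotation in its version only.

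The members and lists were chosen with earlier results of these data known. Named from each list were genes past the fold limit and the 2 largest called rises and falls. Others named in the lists were chosen after their values were seen. fRIP-seq and splicing were not analysed here.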

Additional observations from a re-analysis of the deposited data

How the results depend on the processing

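GRB2 kept its direction and its call under all 15 alternatives, with log2 fold changes from −2.18 to −1.91. Of the 8 enzymes, 3 were called under every count-based alternative, with and without each library (3 to 3, of which 1 to 1 higher and 2 to 2 lower). Limma on FPKM called 1, RPIA, and 0 lower with each of its 3 settings (pseudocount of 1, of 0.1, and a mean FPKM of at least 1). The study's limits on fold change and adjusted p left 0 of the 8, 0 higher and 0 lower. At an unadjusted p under 0.05, limma on FPKM also had 0 lower, and edgeR and DESeq2 each had 2 lower and 1 higher on all 6 libraries. Without si_NC replicate 3, edgeR had 3 lower, PRPS2 being added. PRPS1 changed sign in limma on FPKM, to 0.0074 with a pseudocount of 1, also with a mean FPKM of at least 1, and 0.0078 with 0.1. In these fits, in that order, the median over all genes was 0.0237, 0.0364 and 0.0425, against 0.0019 in the main fit. The requirement on mean FPKM left PRPS2 out. TALDO1 stayed between −0.80 and −0.71.

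Over all genes, 4838 were called, 2396 higher (49.5%) and 2442 lower. Limma on log2(FPKM + 1) called 2633 (1008 lower, 61.7% of its calls higher), with a pseudocount of 0.1 2663 (1023 lower), and with a mean FPKM of at least 1 2709 (998 lower). The study's limits gave 398 (131 higher, 267 lower). Leaving out single libraries gave 3774 to 4420 called genes. Of the lists, with a pseudocount of 1, of 0.1, and with the requirement on mean FPKM, limma called 2, 2 and 2 of the other sugar phosphate and PRPP genes, 1, 1 and 2 of the glycolytic genes, 3, 3 and 3 of the other NADPH-producing enzymes, 6, 6 and 8 of the redox enzymes, 7, 8 and 8 of the nucleotide enzymes, and 6, 6 and 7 of the NFE2L2 targets. DESeq2 called 2 of the other sugar phosphate and PRPP genes, and leaving out single libraries 2 to 4. Why FPKM gave fewer calls was not tested. No alternative was added after the data were seen. Of the 20 list genes named by the rule on size and calls, 13 were called under every alternative that tested them and 0 changed sign. The other list genes named were not followed across settings.

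The deviations of same-numbered libraries correlated at 0.23, −0.09 and 0.08, so the replicate numbers were not taken as pairs. With the replicate block, 4807 genes and the same 3 enzymes were called, and not every library correlated best with its own number.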

Other observations

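The neighbours of TALDO1 on chromosome 11 were read after the other results were known. The 3 nearest tested coding genes on each side, TMEM80, DEAF1, EPS8L2, GATD1, CEND1 and SLC25A22, lie within 42387 bases. Their adjusted p-values ran from 0.0687 to 0.900 (edgeR's quasi-likelihood test). GATD1, 2208 bases beyond TALDO1, had a log2 fold change of −0.01 at 80.8 CPM in si_NC and 80.2 CPM in si_GRB2. EPS8L2, 19688 bases before it, had −0.08 (edgeR quasi-likelihood adjusted p = 0.0912) at 426 and 404 CPM. CEND1 had −0.65 (edgeR quasi-likelihood adjusted p = 0.0687) at only 1.05 and 0.668 CPM.

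By Euclidean distance over the 6 libraries between log2 CPM centred on each gene's own mean, the 3 coding genes nearest to TALDO1 among 12778 were SEC23IP, NSF and GJA5, at distances from 0.0354 to 0.0783 and with log2 fold changes of −0.75, −0.76 and −0.73. They were picked by this distance, so fold changes like that of TALDO1 follow from the choice. The other members lay at distances from 0.775 (PGD, rank 2413) to 1.24 (RPIA, rank 10801).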
